A study of Mus musculus with 12 samples.

Results

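The 33 genes described here encode enzymes of the tricarboxylic acid (TCA) cycle, the steps that bring pyruvate and glutamine into it, and 3 carriers that exchange its intermediates across the inner mitochondrial membrane. They were chosen by name and not by their values. The count table lists 56691 Ensembl gene IDs, 30285 of them with a count above 0 somewhere, and each symbol matched 1 ID.

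RNA from mouse spleen CD8+ T cells was sequenced in 12 libraries, in 4 groups of 3. Naive cells of the genotypes Senp1 WT and Senp1 CKO were taken either without stimulation (0 h) or after 48 h with anti-CD3 at 5 µg/ml and anti-CD28 at 1 µg/ml, antibodies that engage the T-cell receptor and its costimulatory receptor. Senp1 encodes a protease that removes SUMO, a small protein tag, from other proteins. The labels leave unsaid the allele behind CKO, the driver of any Cre, the age and sex of the mice and the number of animals. The p-values therefore measure the spread between these libraries, which may be technical.

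The TCA cycle oxidises acetyl groups from pyruvate and other fuels in the mitochondrial matrix, feeds electrons to the respiratory chain, and supplies carbon for lipids, nucleotides and amino acids. Glutamine refills it: glutaminase makes glutamate, and glutamate dehydrogenase or a transaminase turns glutamate into 2-oxoglutarate. T cells leaving quiescence are known to raise their use of both glucose and glutamine. In bulk RNA, fewer cells of a type and less RNA per cell cannot be told apart.

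Promoters of 3 of these genes are shown as examples. Each holds at least 1 of the 4 motifs that were searched, and each gene rose with stimulation. Other genes of the list, not shown, met the same terms. The stretch is the 250 bases before the RefSeq start on the GRCm38.p6 build, 5′ to 3′ on the gene's strand, and capitals mark motif matches on either strand. Pck2 (chr14:55540016-55540265, plus strand) holds a CCAAT box at 41 bases before the start. It was the gene of the 33 that passed the test as lower in CKO at both times (edgeR adjusted p under 0.05). Slc25a1 (chr16:17928220-17928469, minus strand) holds the E-box CACGTG at 239 bases and a CCAAT box at 125 bases before the start. Got1 (chr19:43524606-43524855, minus strand) holds 5 CCAAT boxes, and next to one of them TGATGCAA, the core of an amino acid response element, at 102 bases before the start.
Pck2: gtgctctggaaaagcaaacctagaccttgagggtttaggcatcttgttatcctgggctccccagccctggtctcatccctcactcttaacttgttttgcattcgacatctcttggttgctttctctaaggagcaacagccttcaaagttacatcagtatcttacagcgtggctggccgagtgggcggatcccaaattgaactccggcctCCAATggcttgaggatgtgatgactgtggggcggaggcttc
Slc25a1: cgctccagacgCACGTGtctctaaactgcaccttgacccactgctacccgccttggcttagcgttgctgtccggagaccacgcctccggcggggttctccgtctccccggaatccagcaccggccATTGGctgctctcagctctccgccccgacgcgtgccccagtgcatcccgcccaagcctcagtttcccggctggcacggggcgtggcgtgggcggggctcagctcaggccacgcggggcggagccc
Got1: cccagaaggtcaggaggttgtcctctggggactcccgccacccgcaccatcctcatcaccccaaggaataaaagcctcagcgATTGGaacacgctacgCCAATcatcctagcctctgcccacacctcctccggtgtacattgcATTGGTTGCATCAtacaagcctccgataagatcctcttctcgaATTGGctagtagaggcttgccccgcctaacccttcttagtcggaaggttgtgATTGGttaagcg

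A RefSeq window of 250 bases before to 50 after the start was found for 29 of the 33 genes, and not for Idh3a, Me2, Gls2 and Pdp1. Idh1, Me1, Ogdh and Pcx had more than 1 window, and a gene was counted if any of its windows held the motif. A gene with more windows thus had more chances of a match. CCAAT stood in a window of 19 of the 29 genes (65.5%), against 41.1% of all 27025 genes. The E-box CACGTG, read by MYC and related factors, stood in 3 (10.3%: Pcx, Ogdh and Slc25a1), against 8.09% of all. GCATGCGC, the core of the site of the mitochondrial regulator NRF1, stood in 2 (6.90%: Ogdh and Glud1), against 3.05%. TGATGCAA stood in 1 (3.45%: Got1), against 1.03%. A CCAAT match overlapped no other motif in the 3 stretches shown. These matches describe the letters of the windows and are not evidence of binding.

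The libraries held 15900529 to 22427151 counts. Senp1 itself was at 83.9, 85.4 and 77.9 CPM (counts scaled to a shared library total with TMM factors) in WT 0 h and at 56.5, 59.8 and 54.6 in CKO 0 h. It was at 150.3, 170.8 and 163.9 in WT 48 h and at 70.0, 74.5 and 66.3 in CKO 48 h. Senp1 was thus lower in CKO at both times, by a log2 change of -0.53 ± 0.070 (SE; edgeR adjusted p = 6.3e-05) and -1.20 ± 0.069 (edgeR adjusted p = 5.4e-10). The CD8 T-cell markers (6 genes, among them Cd8a and Cd3e) summed to 3157.96 to 3357.3 CPM in WT 0 h and 3060.8 to 3255.9 in CKO 0 h, and at 48 h to 1535.8 to 1586.8 in WT and 1293.4 to 1355.2 in CKO. This sum was thus lower at 48 h in both genotypes and, at 48 h, lower in CKO than in WT. At 0 h the CD4 T-cell markers (4 genes, mostly Ctla4) summed to 351 to 409 in WT and 381 to 458 in CKO. At 48 h they summed to 632 to 993 in WT and 501 to 689 in CKO. Cd4 had means of 55.6 in WT and 49.3 in CKO at 0 h, and of 54.04 and 40.1 at 48 h. Foxp3 was at 8.01 ± 1.6 (SD, n = 3) in WT 0 h and 12.2 ± 0.25 in CKO 0 h, and at 5.91 and 7.71 at 48 h. Cd40lg had a lower mean in CKO at both times. The natural killer markers (5 genes) summed at 48 h to 226.0 to 262.1 in WT and 137.2 to 193.2 in CKO, nearly all of it Eomes. At 48 h Ncr1, Klrb1c and Klre1 were higher in CKO, with means of 1.23, 2.31 and 2.15 CPM against 0.71, 1.77 and 1.16 in WT. Klra8 was lower, at 0.92 against 1.06. At 0 h Ncr1, Klrb1c, Klre1 and Klra8 had means of 17.1, 21.4, 14.3 and 25.3 CPM in WT. In CKO 0 h they were at 20.9, 29.5, 23.3 and 33.1, so that all fell with stimulation in both genotypes. Eomes rose, from 65.6 to 239.0 in WT and from 68.9 to 165.8 in CKO. Markers of B cells (10 genes, none at 0 in all libraries) summed to 1487.8 to 2689.5 in WT 0 h, 1129.8 to 1289 in CKO 0 h, 359.6 to 465.0 in WT 48 h and 353.8 to 369.2 in CKO 48 h. Myeloid markers (7 genes) summed to 54.5 to 96.3 over the 0 h libraries and 22.3 to 36.1 over those at 48 h. Erythroid and platelet markers (6 genes) summed to 19.4 to 32.9 in WT 0 h and 10.2 to 16.5 in CKO 0 h. At 48 h they summed to 0.14 to 0.57 in WT and 0.22 to 0.50 in CKO. Neutrophil markers (4 genes) summed to 2.08 to 5.90 in WT 0 h and 1.52 to 5.41 in CKO 0 h, and were close to absent at 48 h. The sums of the CD4 T-cell, B-cell, myeloid, neutrophil and erythroid lists and each natural killer marker thus moved with stimulation. The sums of the B-cell and erythroid lists also moved, at 0 h, with genotype. The part of these marker lists in the changes below was not tested. The WT libraries numbered 1 stood apart from the other WT libraries, the one at 0 h carrying the highest B-cell sum. Where a call named below changes without both, that value is given.

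Of the 33 genes, 32 were tested, each with at least 23 counts in every library. None therefore entered through 1 group alone. Me1, the cytosolic malic enzyme, was too low to test, with 1, 1 and 2 counts in WT 0 h, 7, 5 and 2 in WT 48 h, 1, 1 and 1 in CKO 0 h and 11, 4 and 5 in CKO 48 h.

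Compared per length (CPM per kilobase of exon), Mdh2, the mitochondrial malate dehydrogenase, was the highest at 48 h, at 195.3 in WT and 194.0 in CKO. Cs, citrate synthase, was at 118.9 ± 3.68 (SD, n = 3) and Got2, the mitochondrial aspartate aminotransferase, at 118.8 ± 3.73 in WT 48 h, so that they differed by less than their spread. Pcx, pyruvate carboxylase, was the lowest of those tested, at 1.91 in WT 48 h. Got2 was in place 17 of 33 by this level in WT 0 h and in place 3 in WT 48 h. Glul, glutamine synthetase, went from place 10 to place 22.

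**Figure D1:**
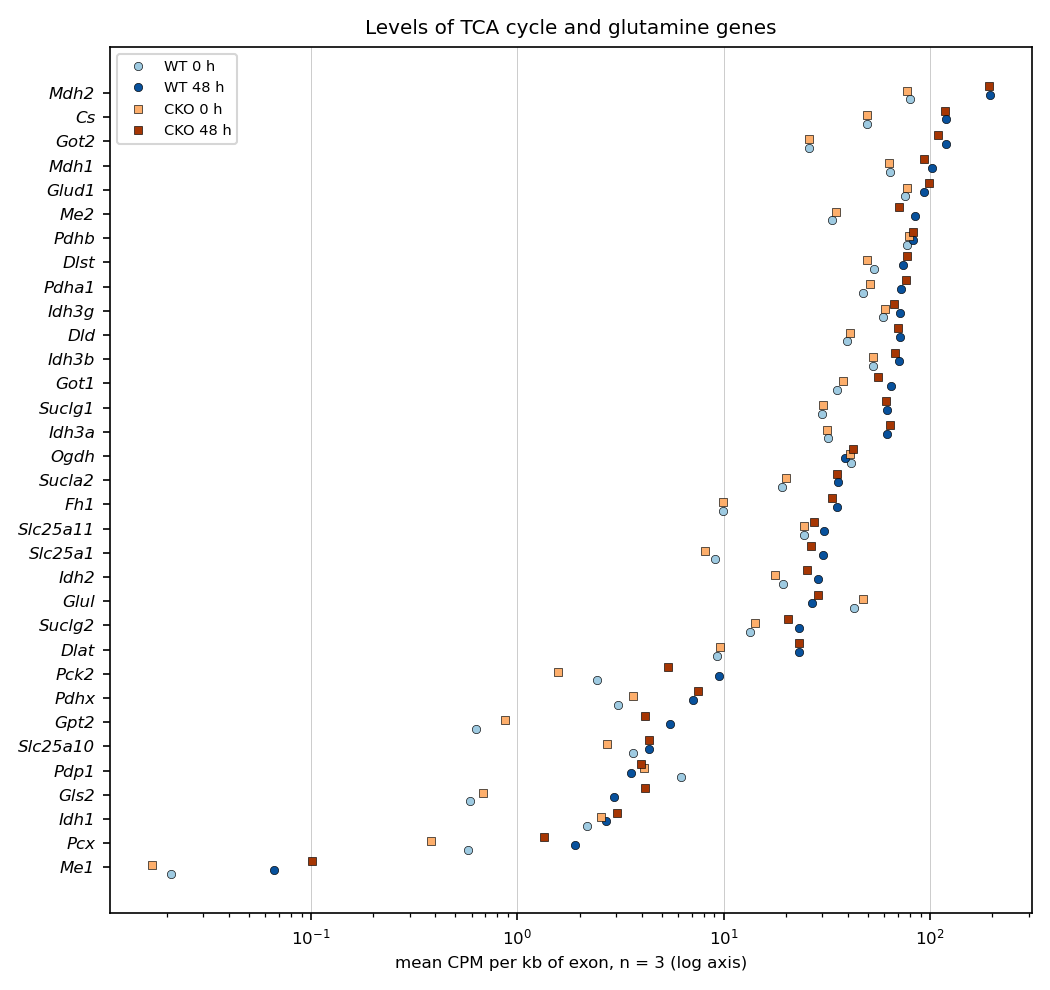
Mean CPM per kilobase of exon on a log axis (n = 3 libraries a group) for each of the 33 genes, ordered by WT 48 h; circles are WT, squares CKO, light symbols 0 h and dark symbols 48 h. Most dark symbols lie to the right of the light ones, Glul and Pdp1 in both genotypes and Ogdh in WT lie the other way, and Me1 is at the bottom.

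Most of these genes rose over 48 h of stimulation in both genotypes. In WT 26 of 32 rose and 2 fell, where 38.7% of all 15935 genes tested rose and 39.1% fell. Their median log2 change was 0.86, against -0.03 over all genes. In CKO 25 rose and 1 fell, where 38.5% of all genes rose and 39.2% fell, and the medians were 0.73 and -0.04. The same 24 genes rose in both genotypes, Glul fell in both, and Idh1, Ogdh and Pdhb passed the test in neither. The summed level of all 33 was 2293 ± 38.4 CPM in WT 0 h and 3897 ± 101.1 in WT 48 h, and 2312 ± 70.2 and 3793 ± 24.7 in CKO.

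**Figure D2:**
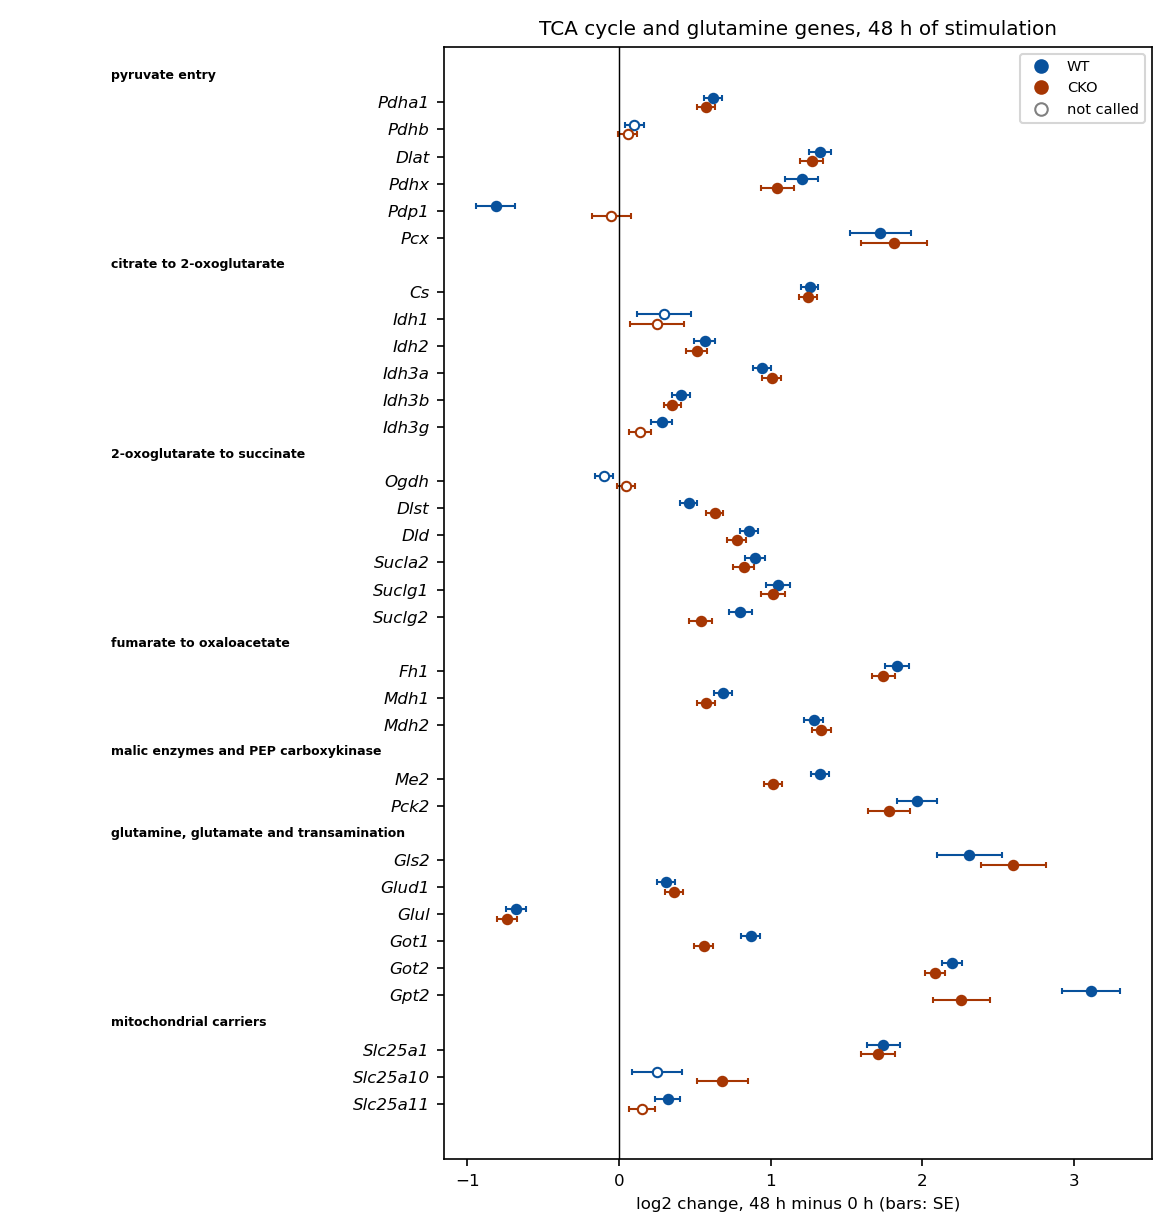
Log2 change at 48 h against 0 h (x axis, with SE) of the 32 tested genes by role, WT in blue and CKO in orange; open symbols did not pass an edgeR adjusted p of 0.05. Gpt2, Gls2 and Got2 lie farthest to the right, Glul lies left of 0 in both genotypes, and Pdp1 lies left of 0 in WT only among the called values.

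Pyruvate enters the cycle as acetyl-CoA through the pyruvate dehydrogenase complex, or as oxaloacetate through pyruvate carboxylase. Of 6 such genes 4 rose in both genotypes. Dlat, the acetyltransferase core of the complex, was at 37.6, 35.6 and 38.8 CPM in WT 0 h and at 97.1, 88.8 and 94.7 in WT 48 h, against 34.7, 42.4 and 39.0 and then 92.7, 90.4 and 97.3 in CKO. The groups did not overlap, and the log2 change was 1.33 ± 0.075 in WT (edgeR adjusted p = 3.2e-12) and 1.27 ± 0.076 in CKO (6.7e-12).

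Pcx was at 2.58, 2.28 and 2.50 CPM in WT 0 h and at 8.06, 8.37 and 7.90 in WT 48 h, against 1.41, 2.06 and 1.40 and then 6.499, 5.54 and 5.16 in CKO. It rose by 1.72 ± 0.20 in WT (edgeR adjusted p = 1.8e-07) and 1.81 ± 0.22 in CKO (2.5e-07), and every CKO library was below every WT library of its time. Pdha1, the catalytic alpha subunit of the complex, rose by 0.62 and 0.57, and Pdhx, which anchors Dld to that core, by 1.21 and 1.04. Pdhb, the beta subunit and partner of Pdha1, was at 0.10 (edgeR adjusted p = 0.13) in WT and 0.06 (0.39) with CKO. The counterpart subunits of the same enzyme therefore differed in whether they passed the test, which was not tested as a difference. Exons of Pdha1 share 603 bases with Map3k15 on the opposite strand, and it is not stated whether counting used the strand. Map3k15 held only 1233 counts against 39074.

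Of the genes that lead from citrate to 2-oxoglutarate, 5 of 6 rose in WT and 4 of 6 in CKO, with medians of 0.49 and 0.43. Cs was at 147.0, 148.4 and 141.0 CPM in WT 0 h and at 360.2, 340.7 and 342.5 in WT 48 h, against 143.2, 153.2 and 139.7 and then 353.2, 333.7 and 348.8 in CKO. That is a log2 change of 1.26 ± 0.057 in WT (edgeR adjusted p = 9.8e-14) and 1.25 ± 0.057 with CKO (1.2e-13), with no overlap.

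Idh3a, the catalytic subunit of the NAD-linked isocitrate dehydrogenase, was at 86.7, 79.6 and 82.2 CPM in WT 0 h and at 155.5, 156.3 and 166.4 in WT 48 h, against 82.3, 78.2 and 85.6 and then 167.2, 158.3 and 169.4 in CKO. It rose by 0.94 ± 0.061 (edgeR adjusted p = 2.4e-11) and 1.01 ± 0.061 (9.3e-12). Its regulatory partners rose too, Idh3b by 0.41 and 0.35 and Idh3g by 0.28 in WT (edgeR adjusted p = 0.0011). In CKO Idh3g was at 0.14 (edgeR adjusted p = 0.074), and passed without the count filter (0.0457), without the WT libraries numbered 1 (0.0320) or without CKO 0 h replicate 2 (0.0474). Idh2, the mitochondrial NADP-linked enzyme, rose by 0.57 and 0.51, while the cytosolic Idh1 was at 0.30 (0.13) and 0.25 (0.20).

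From 2-oxoglutarate to succinate 5 of 6 genes rose in each genotype. Suclg1, the subunit shared by both forms of succinyl-CoA ligase, was at 48.6, 44.2 and 44.1 CPM in WT 0 h and at 103.4, 86.0 and 93.2 in WT 48 h, against 43.8, 50.4 and 43.6 and then 95.3, 91.6 and 92.4 in CKO. It rose by 1.05 ± 0.078 (edgeR adjusted p = 2.4e-10) and 1.02 ± 0.079 (4.0e-10). Sucla2, the ATP-forming subunit, was at 40.3, 44.3 and 43.4 CPM in WT 0 h and at 83.9, 75.5 and 79.2 in WT 48 h, against 44.7, 46.6 and 42.8 and then 78.9, 79.0 and 79.4 in CKO. It rose by 0.90 ± 0.067 (edgeR adjusted p = 2.5e-10) and 0.82 ± 0.068 (1.1e-09), and neither gene's groups overlapped.

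Suclg2, the GTP-forming subunit, rose by 0.80 and 0.54. The 2-oxoglutarate dehydrogenase complex was uneven. Dlst, its succinyltransferase, rose by 0.46 and 0.63, and Dld, the dehydrogenase it shares with the pyruvate complex, by 0.86 and 0.78. Ogdh, the subunit that binds 2-oxoglutarate, was at -0.09 ± 0.059 (edgeR adjusted p = 0.15) for WT and, for CKO, 0.05 ± 0.059 (0.48), and its 95% intervals reached no further than -0.23 to 0.04 and -0.09 to 0.18.

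From fumarate to oxaloacetate all 3 genes rose in both genotypes. Fh1, fumarase, was at 26.7, 24.2 and 27.3 CPM in WT 0 h and at 97.5, 86.2 and 95.3 in WT 48 h, against 26.1, 28.6 and 24.0 and then 87.8, 88.0 and 87.8 in CKO. Its log2 change of 1.83 ± 0.078 (edgeR adjusted p = 3.5e-14) for WT and, for CKO, 1.74 ± 0.079 (8.4e-14) came with groups far apart. Mdh2 was at 118.7, 111.3 and 120.2 CPM in WT 0 h and at 301.3, 270.9 and 281.1 in WT 48 h, against 107.6, 121.5 and 106.8 and then 283.9, 284.6 and 279.1 in CKO. It rose by 1.28 ± 0.064 (edgeR adjusted p = 3.9e-13) and 1.34 ± 0.064 (2.3e-13), and the cytosolic Mdh1 by 0.69 and 0.57.

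Malic enzyme and phosphoenolpyruvate carboxykinase draw carbon out of the cycle. Me2, the mitochondrial malic enzyme, was at 90.8, 92.0 and 83.4 CPM in WT 0 h and at 224.4, 213.2 and 229.3 in WT 48 h, against 93.0, 89.6 and 92.9 and then 191.5, 184.3 and 181.8 in CKO. It rose by 1.32 ± 0.059 in WT (edgeR adjusted p = 7.3e-14) and 1.02 ± 0.059 in CKO (4.6e-12). Pck2, the mitochondrial carboxykinase, was at 12.1, 9.67 and 12.01 CPM in WT 0 h and at 51.3, 36.9 and 43.4 in WT 48 h, against 7.87, 6.96 and 6.89 and then 26.8, 26.5 and 21.5 in CKO. Its rise was 1.97 ± 0.13 (edgeR adjusted p = 4.0e-11) and 1.78 ± 0.14 (5.4e-10). Both genes rose without overlap in each genotype, from levels that for Pck2 were already apart at 0 h.

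Among the 6 genes of glutamine, glutamate and transamination, 5 rose and 1 fell in each genotype. Gpt2, the mitochondrial alanine aminotransferase, was at 2.40, 2.78 and 1.66 CPM in WT 0 h and at 23.6, 17.9 and 18.3 in WT 48 h, against 3.38, 2.79 and 3.29 and then 17.7, 13.0 and 14.6 in CKO. Its change was the largest of the 32 in WT, at 3.11 ± 0.19 (8.64-fold; edgeR adjusted p = 1.1e-11), and was 2.26 ± 0.19 (4.79-fold; 1.2e-09) in CKO. Gls2, the liver-type glutaminase, was at 1.32, 1.47 and 1.78 CPM in WT 0 h and at 8.52, 6.05 and 8.12 in WT 48 h, against 1.91, 1.94 and 1.40 and then 11.8, 10.0 and 10.1 in CKO. It rose by 2.31 ± 0.22 (edgeR adjusted p = 7.0e-09) and 2.60 ± 0.21 (9.4e-10). Its exons share 32 bases with Spryd4 on the opposite strand, which held 2942 counts against 1219 of Gls2, so that some of its counts may belong there.

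Glul, which makes glutamine from glutamate, fell in both. It was at 120.1, 115.0 and 122.8 CPM in WT 0 h and at 70.3, 79.0 and 74.5 in WT 48 h, against 126.2, 135.0 and 136.9 and then 75.2, 85.5 and 78.4 in CKO. The log2 change was -0.68 ± 0.066 (edgeR adjusted p = 1.5e-08) and -0.74 ± 0.066 (4.4e-09), with no overlap.

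Got2 rose 4.58-fold (edgeR adjusted p = 1.8e-16) for WT and, for CKO, 4.24-fold (4.1e-16), with an SE of 0.066 on the log2 scale in each. The cytosolic Got1, whose promoter is shown above, rose by 0.87 and 0.56. Glud1, glutamate dehydrogenase, rose by 0.31 and 0.37. The log2 changes of the transaminases Got2 and Gpt2 were thus larger than that of the dehydrogenase that uses the same substrate.

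Among the carriers, Slc25a1, which exports citrate, was at 16.2, 12.7 and 16.4 CPM in WT 0 h and at 55.8, 44.7 and 50.7 in WT 48 h, against 12.7, 14.8 and 13.0 and then 43.8, 41.9 and 46.7 in CKO. It rose by 1.74 ± 0.11 (edgeR adjusted p = 1.3e-11) and 1.71 ± 0.11 (2.5e-11). Slc25a11, which exchanges 2-oxoglutarate for malate, was at 46.0, 40.3 and 39.7 CPM in WT 0 h and at 57.2, 51.7 and 48.6 in WT 48 h, against 40.1, 44.1 and 41.6 and then 49.7, 47.3 and 43.0 in CKO. It rose by 0.32 ± 0.084 (edgeR adjusted p = 0.0018) in WT. In CKO the groups overlapped and it was at 0.15 (0.10), passing the test without CKO 48 h replicate 3 (0.0462). Slc25a10, the dicarboxylate carrier, was at 0.25 (0.16) in WT and rose by 0.68 ± 0.17 (edgeR adjusted p = 0.0011) in CKO, and the difference between both responses did not pass the test (0.43 ± 0.23, edgeR adjusted p = 0.47).

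Ratios of paired genes within a library need no scaling between libraries. With 3 libraries against 3, the exact two-sided permutation test cannot go below p = 0.1, and adjusted over the 12 pairs the smallest value was 0.12 in WT and 0.109 in CKO. The ratio groups did not overlap in 10 of 12 pairs in WT and 11 of 12 in CKO. Between genotypes they did not overlap in 4 of 12 pairs at 0 h and 9 of 12 at 48 h. How often other pairs of genes separate was not counted, so these counts are no result about the pairs chosen. On the log2 scale Got2 over Got1 moved by 1.33 in WT and 1.53 in CKO, and Mdh2 over Mdh1 by 0.59 and 0.77, without overlap. The other 2 pairs of a mitochondrial and a cytosolic form did not move alike: Idh2 over Idh1 moved by 0.28 in WT and 0.25 in CKO, the latter with overlap, and Me2 over Me1, resting on few Me1 counts, by 0.08 with overlap and -0.93 without. Gpt2 over Glud1 moved by 2.82 and 1.88, and Got2 over Glud1 by 1.89 and 1.72.

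**Figure D3:**
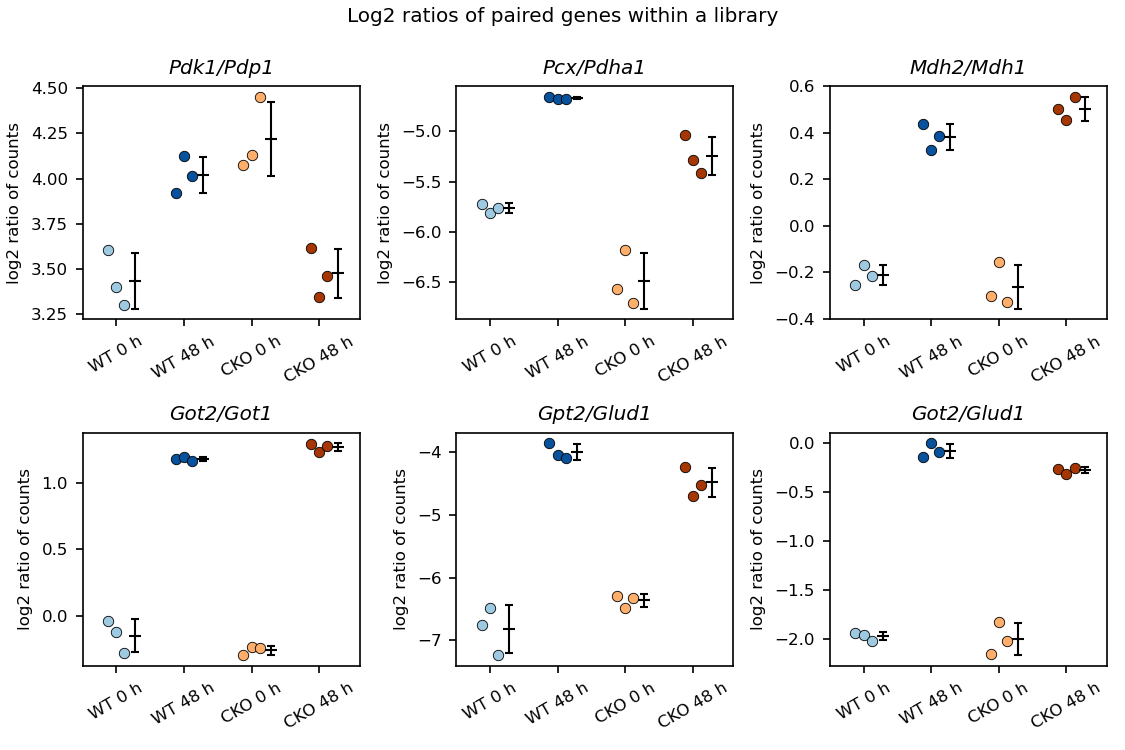
Log2 ratio of the counts of 2 genes in each library (y axis) for 6 pairs by group; points are libraries, bars the mean and SD of 3. The Pdk1 over Pdp1 ratio goes up with stimulation in WT and down in CKO, and the other 5 pairs go up in both.

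Without stimulation, CKO and WT differed in few of these genes. None of 32 was higher in CKO and 2 were lower, Pdp1 and Pck2, where 4.1% of all genes were higher and 3.38% lower. The 2 of 32 are 6.25%, too few to set apart from that background. By unadjusted p under 0.05, 6 of 32 (18.8%) passed, against 21.1% of all genes. DESeq2 called the same number in each direction. For 25 of 32 genes the 95% interval lay within 1.5-fold either way, the exceptions being Pcx, Slc25a10, Idh1, Gpt2, Pck2, Gls2 and Pdp1.

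Pdp1 (ENSMUSG00000049225) encodes a phosphatase that switches pyruvate dehydrogenase on by removing the phosphate that kinases such as Pdk1 add. It was at 24.7, 29.2 and 30.1 CPM in WT 0 h and at 20.6, 19.6 and 15.3 in CKO 0 h. All 3 CKO libraries were below all 3 WT libraries, with a log2 change of -0.60 ± 0.13 (edgeR adjusted p = 0.0061). Pck2 (ENSMUSG00000040618), with the values above, differed by -0.63 ± 0.15 (edgeR adjusted p = 0.011), again without overlap, and this call was lost without CKO 0 h replicate 3 (0.0543). The B-cell sum and the erythroid and platelet sum were also lower in CKO at 0 h, and the mean of Foxp3 was higher. The part of these markers in these differences was not tested. Without the WT libraries numbered 1, the 0 h one of which had the highest B-cell sum, the changes were -0.67 for Pdp1 (0.0017) and -0.57 for Pck2 (0.018).

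At 48 h, again none of 32 was higher in CKO and 2 were lower, Pck2 and Me2, where 2.35% of all genes were higher and 2.19% lower, and here too the count is small. By unadjusted p under 0.05, 10 of 32 (31.2%) passed, against 16.7% of all genes. DESeq2 called 0 higher and 3 lower, adding Got1 (0.0480). The CD8 T-cell marker sum was also lower in CKO at 48 h, without overlap, as was the natural killer sum, nearly all of it Eomes. Among the other natural killer markers, Ncr1, Klrb1c and Klre1 were higher in CKO and Klra8 lower. The mean of Cd4 was lower in CKO and that of Foxp3 higher. The part of these markers in the differences between genotypes was not tested. The 95% interval lay within 1.5-fold for 28 of 32, all except Pcx, Gpt2, Pck2 and Gls2.

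Pck2 was lower by -0.82 ± 0.12 (0.567-fold; edgeR adjusted p = 0.00032), with the CKO libraries at 26.8, 26.5 and 21.5 CPM all under the WT libraries at 51.3, 36.9 and 43.4. This kept its call in all 6 fits that left out 1 library, and was -0.70 (0.00057) without the WT libraries numbered 1. Me2 (ENSMUSG00000024556), with no overlap either, was lower by -0.26 ± 0.058 (0.836-fold; edgeR adjusted p = 0.011). The Me2 call was lost without WT 48 h replicate 3 (0.0735) or CKO 48 h replicate 3 (0.0750). Got1 was at -0.20 ± 0.062 (edgeR adjusted p = 0.069), Gpt2 at -0.40 ± 0.16 (0.19), Pcx at -0.50 ± 0.19 (0.15) and Gls2 at 0.49 ± 0.18 (0.15), and in each of these the groups did not overlap. The same held for Idh2, Idh3g, Suclg2, Mdh1 and Got2, all lower in CKO, and for Ogdh, which was higher. How often groups fail to overlap over all genes was not counted, so this sets none of these genes apart. Cs and Mdh2 were both at -0.01 on the log2 scale, with 95% intervals of -0.14 to 0.12 and -0.15 to 0.13.

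**Figure D4:**
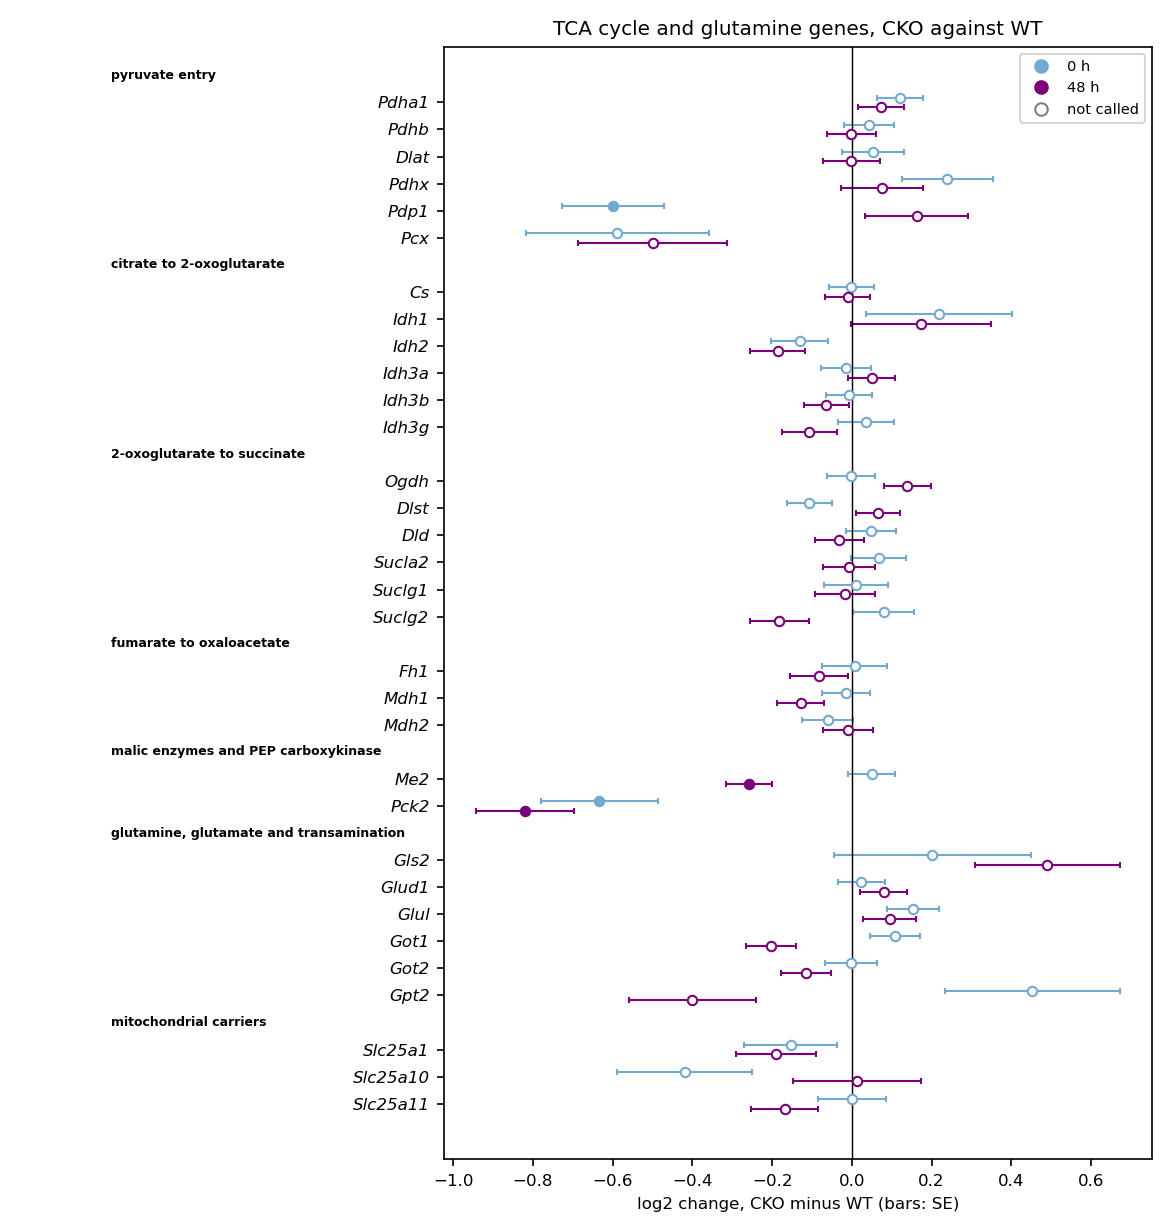
Log2 change in CKO against WT (x axis, with SE) of the 32 tested genes by role, 0 h in light blue and 48 h in purple; filled symbols passed an edgeR adjusted p of 0.05. The filled symbols are Pdp1 at 0 h, Me2 at 48 h and Pck2 at both times, all left of 0.

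The response to stimulation differed between the genotypes in 1 of 32 genes, Pdp1, which fell in WT and did not pass the test in CKO. Of all genes, 0.609% had a more positive response in CKO and 0.772% a more negative one, so that 1 gene is no result about the list. By unadjusted p under 0.05, 6 of 32 (18.8%) passed, against 12.8% of all genes. Pdp1 was at 16.6, 14.9 and 16.3 CPM in WT 48 h, below all WT 0 h libraries, and at 16.2, 21.0 and 16.4 in CKO 48 h, overlapping CKO 0 h. The log2 change was -0.81 ± 0.13 (edgeR adjusted p = 9.9e-06) for WT and, for CKO, -0.05 ± 0.13 (0.74), and their difference 0.76 ± 0.18 (0.040). The CKO 0 h mean of 18.5 ± 2.81 CPM (SD, n = 3) thus lay near the 48 h means of 15.95 ± 0.93 in WT and 17.9 ± 2.73 in CKO. These differences use the same libraries as the genotype comparisons above. This difference lost its call in 8 of the 12 fits that left out 1 library, with adjusted p of 0.0978 and 0.0981 without WT 0 h replicate 2 or 3, 0.101 and 0.0846 without WT 48 h replicate 2 or 3, 0.110 without CKO 0 h replicate 3, and 0.0518, 0.121 and 0.0675 without CKO 48 h replicate 1, 2 or 3.

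Pdk1, a kinase that opposes Pdp1 and is not one of the 33 genes, had mean differences between the genotypes of the opposite sign. It was at 301.0, 308.0 and 296.4 CPM in WT 0 h, 252.2, 260.0 and 264.8 in WT 48 h, 347.1, 342.6 and 336.0 in CKO 0 h and 199.0, 213.4 and 180.8 in CKO 48 h. It fell by 0.22 in WT (edgeR adjusted p = 0.0026) and by 0.79 in CKO (3.8e-10), and the difference was -0.57 ± 0.085 (0.0011). The higher Pdk1 in CKO at 0 h did not pass the test. It passed in DESeq2 (adjusted p = 0.0295) and in edgeR with only the groups compared (0.0396). At 48 h Pdk1 passed as lower in CKO, and Pdp1 did not pass. The log2 ratio of Pdk1 to Pdp1 went from 3.43 ± 0.16 to 4.02 ± 0.10 in WT and from 4.22 ± 0.21 to 3.47 ± 0.14 in CKO (SD, n = 3). None of the 4 comparisons overlapped, with an exact p of 0.1 in each, the smallest possible. Adjusted over the 12 pairs, the permutation p was 0.12 and 0.109 for stimulation in WT and CKO. For genotype it was 0.3 at 0 h and 0.133 at 48 h. The ratio rests on the same counts as the changes of Pdk1 and Pdp1 above. Pdp2, another phosphatase of pyruvate dehydrogenase, went from a mean of 17.8 to 46.6 CPM in WT and from 21.4 to 42.2 in CKO. The ratio of Pdk1 to Pdp1 thus does not give the balance of all kinases and phosphatases of this enzyme.

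**Figure D5:**
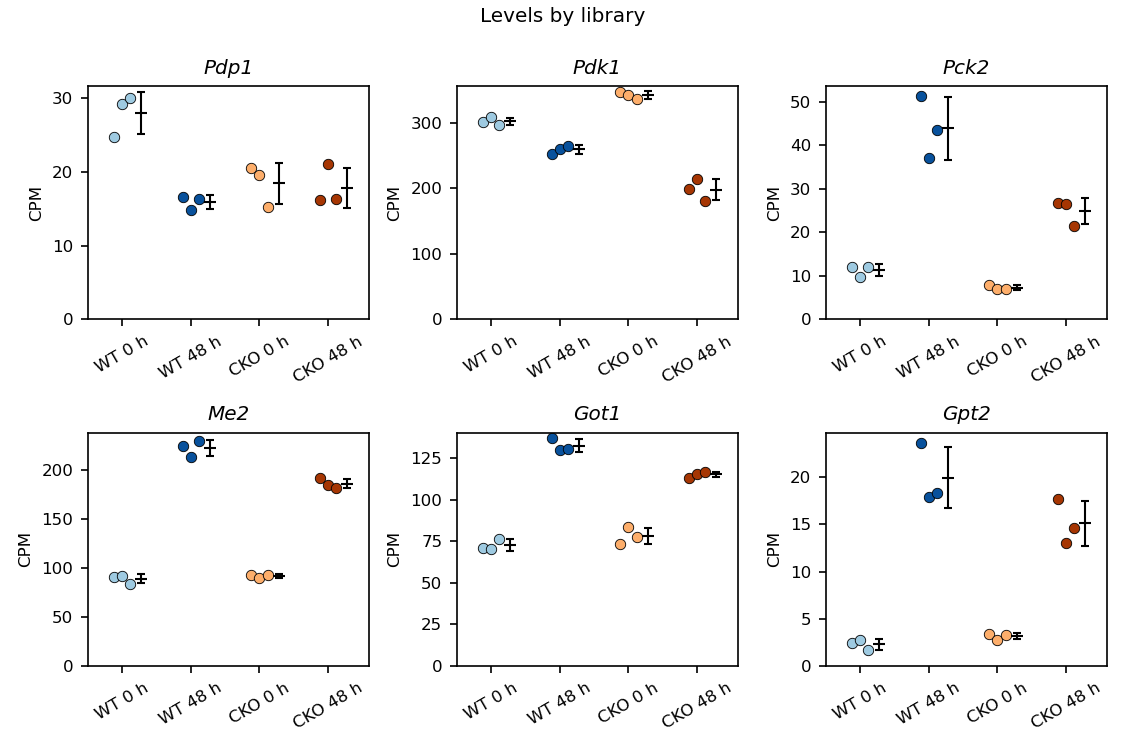
CPM of Pdp1, Pdk1, Pck2, Me2, Got1 and Gpt2 in each library (y axis from 0) by group, with the mean and SD of 3. Pdp1 is high in WT 0 h alone, Pdk1 is lowest in CKO 48 h, and Pck2 is lower in CKO at each time.

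For Me2, Got1 and Gpt2 the difference between the responses, CKO minus WT, was -0.31 ± 0.083 (edgeR adjusted p = 0.078), -0.31 ± 0.089 (0.10) and -0.85 ± 0.27 (0.15). None of these passed the test. Me2 passed without WT 48 h replicate 1 (0.0469) and without both WT libraries numbered 1 (0.0430), and DESeq2 called Me2 (0.0168) and Got1 (0.0440). For Pck2 the difference was -0.19 ± 0.19 (0.77), with a 95% interval of -0.63 to 0.26.

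Other genes of the same pathways, 47 in number of which 43 were tested, were read beside these. In WT 26 rose and 9 fell (60.5% and 20.9%, against 38.7% and 39.1% of all genes tested). In CKO 27 rose and 11 fell (62.8% and 25.6%, against 38.5% and 39.2%). Sdha, a subunit of succinate dehydrogenase, rose by 0.39 in WT and 0.40 in CKO. The acetyl-CoA synthetases fell, Acss1 by 3.05 in both and Acss2 by 1.92 and 2.28. Pdk3, another pyruvate dehydrogenase kinase, rose by 2.05 and 1.88, and Slc7a5, a subunit of the large neutral amino acid transporter, by 2.48 and 2.16. Slc38a2, a glutamine and neutral amino acid transporter, fell by 1.16 and 1.55. Mpc1, part of the mitochondrial pyruvate carrier, was at 0.10 (edgeR adjusted p = 0.44) and 0.29 (0.030). The Mpc1 call in CKO was lost without CKO 0 h replicate 1 (0.0789), CKO 0 h replicate 3 (just at the threshold) or CKO 48 h replicate 3 (0.174), with library totals only (0.0529) and in DESeq2 (0.0584).

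At 0 h 4 of these 43 were higher in CKO and 2 lower (9.30% and 4.65%, against 4.10% and 3.38% of all genes), which are small counts. Among those higher, Slc3a2, the partner of Slc7a5, was at 0.44 ± 0.075 (edgeR adjusted p = 0.00076), Slc38a2 at 0.26 ± 0.058 (0.0085) and Acss2 at 0.23 ± 0.070 (0.048). Oxct1, of ketone body use, was at -0.32 ± 0.068 (0.0069) and Slc25a12, the aspartate-glutamate carrier, at -0.26 ± 0.075 (0.040). The calls of Acss2 and Slc25a12 were lost in 5 and 4 of 6 fits that left out 1 library, that of Slc25a12 also without the WT libraries numbered 1 (-0.22, 0.082), and that of Slc38a2 without WT 0 h replicate 3 (0.0597). At 48 h none was higher, and Pdk1 (-0.39 ± 0.061, edgeR adjusted p = 0.00046) and Slc25a12 (-0.29 ± 0.074, 0.027) were lower, the Slc25a12 call being lost in 5 of 6 such fits. These 2 are 4.65% of the 43, where 2.35% of all genes were higher and 2.19% lower, and the count is again small. Besides Pdk1, the responses of Slc3a2 (-0.55 ± 0.11, edgeR adjusted p = 0.010) and Slc38a2 (-0.40 ± 0.082, 0.017) were more negative in CKO, and the second was lost without WT 0 h replicate 3 (0.0570), CKO 0 h replicate 1 (0.0537) or CKO 48 h replicate 3 (0.0559). With Pdk1 they are 6.98% of the 43, against 0.772% of all genes, again a small count.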

How the data were processed

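The authors deposited raw, unscaled counts for each Ensembl gene ID. TRIzol extraction and the TruSeq Stranded mRNA kit are stated per the labels' protocols. The submitters' processing notes name cutadapt, HISAT2 2.2.1, DESeq2 and GRCm39, with no role. Not given in the sources used here were the counting program, annotation release and strand setting. Reads of overlapping genes could thus have been counted at either.

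Counts were TMM-scaled and fitted with edgeR 4.0.16 (robust quasi-likelihood, 1 mean per group) in R 4.3.3, with all 12 libraries and 8 residual degrees of freedom. The 15935 genes kept by filterByExpr were tested on both sides, with Benjamini-Hochberg adjustment over all of them and calls at an adjusted p under 0.05. The fit was tested on simulated data. The common biological coefficient of variation was 0.0999. Intervals are 95%, from a t distribution on 8 degrees of freedom. Ratios used counts plus 0.5. Exon lengths, overlaps and promoters came from GRCm38 by gene ID or symbol. The alternatives were other size factors, library totals, no filter, a replicate block, DESeq2 1.42.0, only the groups compared, each library left out in turn, and the WT libraries numbered 1 left out.

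All genes were named, and given by library where they had one of the 2 largest WT changes of their role, differed by genotype or moved against the majority. Of the other pathway genes, Sdha, Pdk1 and Mpc1 and per comparison the 4 called with the smallest adjusted p were named. Acss2 and Slc25a12 at 0 h, and Pdp2, were named after their values were seen. Some genes the rule names are not reported here. The genes, lists and rules were chosen with earlier results of these data known. No column of another sample was found (0).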

Additional observations from a re-analysis of the deposited data

Results flagged for a closer look

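The response to stimulation differed between WT and CKO, by the interaction term of the edgeR fit, for Pdp1 (0.76 on the log2 scale, CKO minus WT), for Senp1 itself (-0.67), and for 3 genes of the same pathways outside the 33, Pdk1 (-0.57), Slc3a2 (-0.55) and Slc38a2 (-0.40). Pdk1, Slc3a2 and Senp1 kept their call in all 12 fits that left out 1 library, Slc38a2 in 9 and Pdp1 in 4.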

How the results depend on the processing

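The count of genes whose response was lower in CKO was 0 and became 1 without the count filter (Gpt2, -0.87, adjusted p = 0.0402), 1 without the WT libraries numbered 1 at both times (Me2, -0.33, 0.0430) and 2 with DESeq2. Leaving out 1 library at a time gave 0 to 1 lower and 0 to 1 higher responses in CKO, 1 to 2 genes lower at 0 h and 1 to 2 lower at 48 h. The Me2 over Me1 ratio in CKO changed with stimulation by -0.93 with 0.5 added to each count and by 0.28 with 5 added, since Me1 held few counts. With the replicate block 26 genes rose in WT and 25 in CKO, as without it, and it changed no call of the 32 genes. Acss2 lost its call at 0 h (0.0616). The block put WT and CKO libraries of the same number together, so pairing within each genotype alone was not tested. Same-numbered libraries correlated by 0.0623 to 0.162 in WT and 0.0424 to 0.0562 in CKO over genes, not all above 0.1, so the numbers were not taken to pair them, although within each genotype every library correlated best with its own number. Over all alternatives, 416 of 416 values kept direction and call for stimulation in WT, 408 of 416 in CKO, 363 of 416 at 0 h, 376 of 416 at 48 h and 544 of 576 for the difference of responses. For genes near 2 CPM, such as Pcx, Gls2 and Gpt2 at 0 h, counting error limits what could be seen.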
